A study of Mus musculus with 13 samples.

Results

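Phase II enzymes attach a large polar group to drugs, hormones, bile pigments and reactive metabolites. UDP-glucuronosyltransferases (Ugt) add glucuronic acid in the endoplasmic reticulum, glutathione S-transferases (Gst, and the membrane-bound Mgst) add glutathione, and sulfotransferases (Sult) add sulfate. Hepatocytes are a main site of all 3 reactions, and each family draws on its own cofactor. The members described here were every gene symbol of the deposited tables that belongs to Ugt1, Ugt2 or Ugt3, to the soluble glutathione S-transferase classes alpha, mu, pi, theta, kappa, omega and zeta, to Mgst or to Sult, pseudogenes left out. They came to 62 of 23361 symbols, in 12 families.

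Tumour RNA was sequenced from mice with hepatocellular carcinoma, the main cancer of hepatocytes. The siYap group (n = 5 libraries) received lipid nanoparticles carrying siRNA against Yap, the transcriptional co-activator held in check by the Hippo pathway. The siLuc group (n = 8 libraries) received the same kind of particle with siRNA against luciferase, which mice do not make. Treatment was intravenous and lasted 9 days in both groups. All mice of both groups were Mst1-/-; Mst2Flox/Flox on a mixed C57BL/6 and 129Sv background, and per the labels both kinases, which restrain Yap, were deleted: Mst1 by inheritance and Mst2 by Cre from an injected adenovirus. No Mst-proficient tissue was analysed here, the labels give no ages, and the libraries may include several tumours of 1 mouse, so the spread behind each p-value is that among libraries, which need not be separate animals.

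Library totals ran between 23637021 and 37043914 fragments, and siYap replicates 1 and 3 had the lowest totals and the highest level of the ribosomal precursor Rn45s (335 and 267 FPKM, against 94.2 to 124 FPKM in the other siYap and 69.6 to 229 FPKM in siLuc libraries). Yap1 averaged 3.29 ± 0.845 FPKM in siYap and 9.999 ± 1.37 FPKM in siLuc tumours (SD), with no overlap (log2 fold change -1.58 ± 0.17 SE, edgeR adjusted p = 2.36e-05). Mst1 transcript (Stk4) stayed at or under 0.0688 FPKM in siYap and 0.0891 FPKM in siLuc libraries, while Stk3 (Mst2) was still read at 5.22 ± 1.32 FPKM in siYap and 6.12 ± 0.619 FPKM in siLuc, values of the whole gene that do not check the floxed part. The 8 hepatocyte markers summed to between 8976 and 13211 FPKM in siYap and between 10790 and 18419 FPKM in siLuc libraries, and 3 of them were lower (Serpina1a, Cps1 and Fgb) and 1 was higher (Tat) in siYap.

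Of the 62 members, 51 passed the filter on low counts and 11 did not, which had at most 21 fragments in any library. Among the 51 tested members, 11 were higher and 8 lower in siYap than in siLuc tumours at an edgeR adjusted p under 0.05 over 15132 genes, and 32 did not pass. The called share was 37.3% of tested members, against 30.8% of all tested genes. By direction, 21.6% of members were higher against 16.0% of all genes, and 15.7% were lower against 14.8%, so the lower share was close to the background. The median log2 fold change was 0.28 over the tested members and -0.0026 over all tested genes. Every siYap library exceeded every siLuc library for 4 members (Ugt1a5, Gstm2, Gstt3 and Sult1d1), where 5.57% of all genes did so. Every siYap library lay below every siLuc library for 2 members (Gstm5 and Sult1a1), against 5.66% of all genes. Without siYap replicates 1 and 3, an omission chosen after the data were seen, 12 members were higher and 5 lower.

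**Figure D1:**
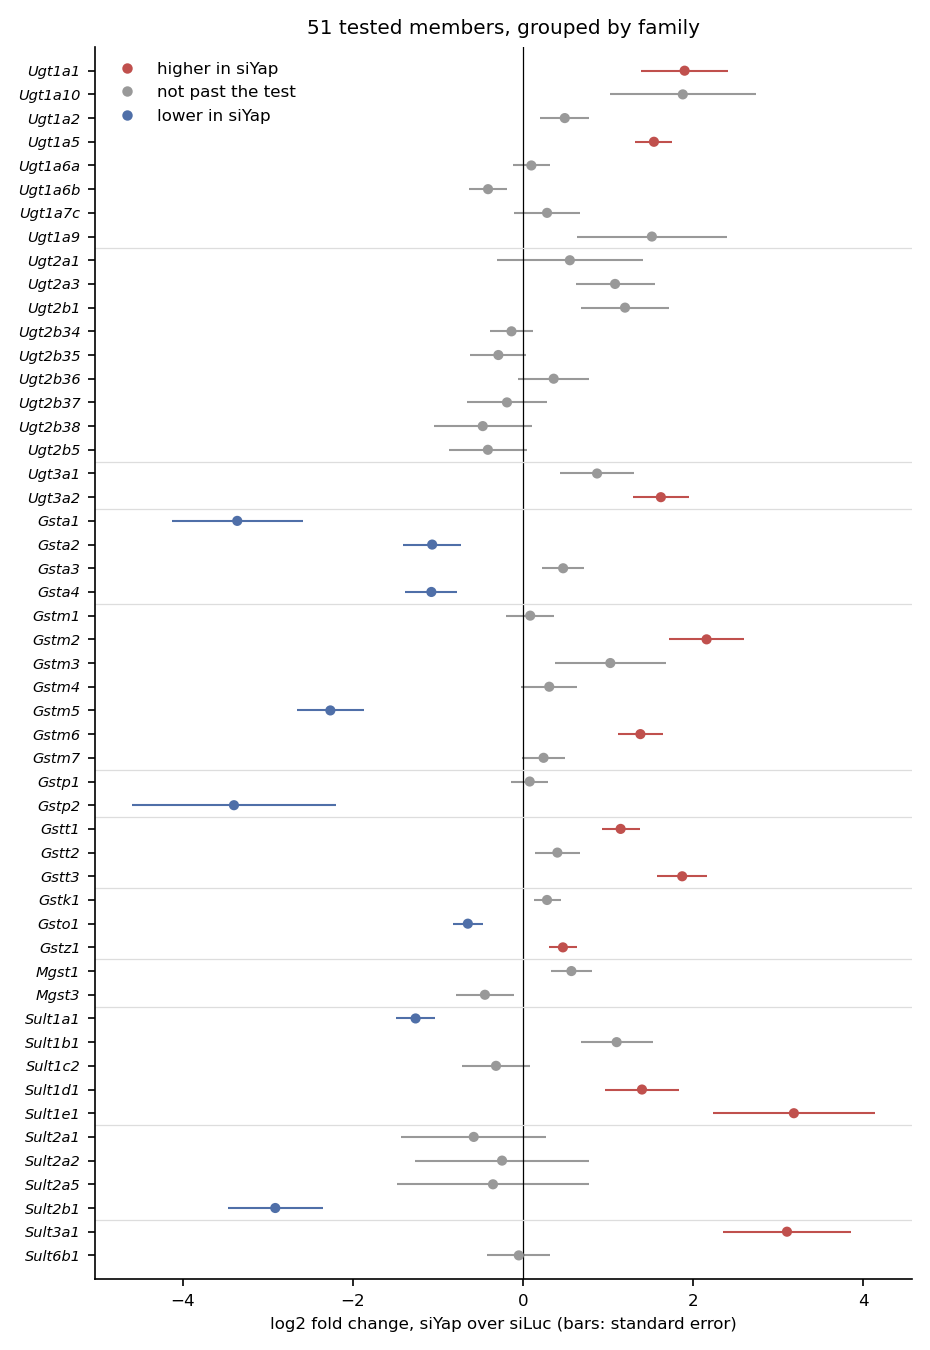
Each point is the log2 fold change of 1 tested member, siYap over siLuc (x axis; bars are standard errors; n = 5 siYap and 8 siLuc libraries), with members grouped by family down the page. Coloured points passed an adjusted p of 0.05: the 11 higher members lie between 0.47 (Gstz1) and 3.18 (Sult1e1), and the 8 lower members between -3.40 (Gstp2) and -0.65 (Gsto1).

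Calls by family rest on 2 to 9 tested members each, and their spread over the families was not tested. Over all tested genes, 16.0% were higher and 14.8% lower. Ugt1, Ugt3, Gstt and other Sult had only higher calls (2 of 8, 1 of 2, 2 of 3 and 1 of 2 tested). Gsta, Gstp and Sult2 had only lower ones (3 of 4, 1 of 2 and 1 of 4). The mu glutathione transferases, the other soluble Gst and Sult1 had both. None of 9 tested Ugt2 members and neither of 2 tested Mgst members passed edgeR's test. At an unadjusted p under 0.05 there were 2 Ugt2 members (Ugt2a3 and Ugt2b1) and 1 Mgst member (Mgst1). DESeq2's test called 1 Ugt2 member (Ugt2a3) and limma on log2(FPKM + 1) another (Ugt2b1), and neither tool called an Mgst member. The leading digit of the file code (6, 7 or 8) divides the libraries into 3 sets that may be batches, and digit 8 holds only siYap replicate 5 and siLuc replicate 8, the only library from a male by its Y-linked transcripts. All 19 called members had the same sign in each set, as did 95.2% of all called genes, and since the calls rest on the same libraries this is a description. For Gstm2, the difference of mean log2(CPM + 0.01), siYap minus siLuc (CPM with TMM scaling), was 2.16, 2.22 and 4.74 in digits 6, 7 and 8, and for Sult1a1 it was -1.52, -1.02 and -1.93.

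Other cell markers also differed between the groups. Over all tested genes, 16.0% were higher and 14.8% lower in siYap. Counts over the short marker lists, the hepatocyte markers above included, were not tested against these shares. All 11 pericentral hepatocyte markers tested were higher in siYap (summed level 4673 to 23926 FPKM in siYap, 189 to 1005 FPKM in siLuc), and 4 of 10 periportal markers were lower (184 to 1377 FPKM in siYap, 1048 to 2734 FPKM in siLuc). Of 9 cholangiocyte markers, 4 were lower (Epcam, Sox9, Spp1 and Pkhd1, log2 fold change -2.30, -1.76, -2.99 and -1.78) and 0 were higher. The list summed to between 171 and 1151 FPKM in siYap and between 1953 and 5099 FPKM in siLuc. Most of that sum was Spp1 (153 to 1130 FPKM in siYap, 1912 to 5012 FPKM in siLuc). Krt19 and Krt7, both low, were among the markers that did not pass the test. They averaged 0.863 ± 0.458 FPKM and 0.981 ± 0.422 FPKM in siYap and 0.789 ± 0.672 FPKM and 0.935 ± 1.002 FPKM in siLuc. All 5 neutrophil markers in the tables were higher (165 to 1253 FPKM in siYap, 35.0 to 205 FPKM in siLuc). Of macrophage markers 3 of 6 were lower, of stellate markers 2 of 7 and of endothelial markers 2 of 6 were higher, while T and B cell markers stayed low (summed level 1.78 to 5.84 FPKM in siYap, 1.25 to 5.44 FPKM in siLuc). In such bulk samples a change in the number of cells of a type and a change of RNA per cell cannot be told apart, and the part of these shifts in the results on the conjugation enzymes was not tested.

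**Figure D2:**
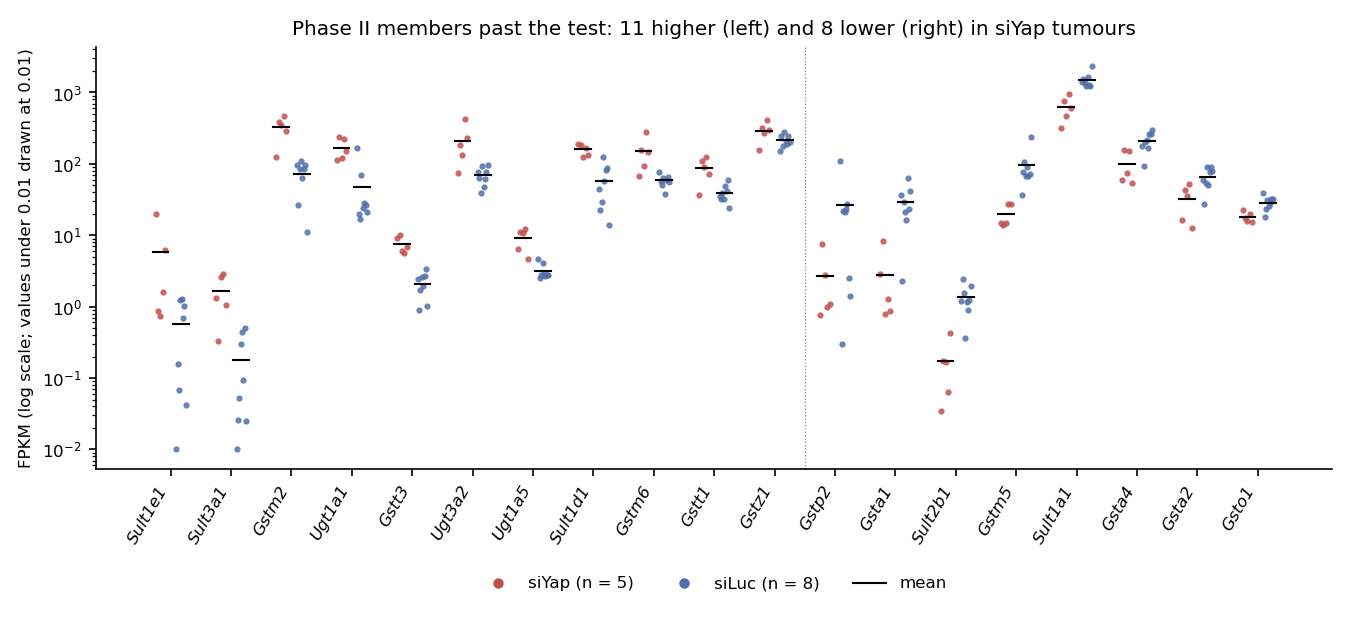
FPKM on a log axis for the 19 called members, 1 point per library, siYap left of siLuc for each gene and a line at the mean; values under 0.01 are drawn at 0.01. Sult1a1, the most abundant of them, lies between 322 and 965 FPKM in siYap and between 1226 and 2336 FPKM in siLuc libraries.

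The Ugt1 members are transcripts of a single locus (chromosome 1, 88055411 to 88220002 on GRCm38, plus strand). Each has its own promoter and first exon, joined to the same downstream exons. The promoter windows below cover a part of what differs between them. They are shown for Ugt1a1 and Ugt1a5, which rose, and for Ugt1a6a, which did not pass the test. Each window holds 250 bases before and 50 after the RefSeq start (GRCm38.p6, plus strand, 5′ to 3′), at chr1:88211709-88212008, chr1:88165762-88166061 and chr1:88134559-88134858. Capitals mark a match on either strand to 1 of 5 motifs: the antioxidant response element TGACNNNGC, the TCF/LEF letters CTTTGAT and CTTTGAA, the TEAD letters GGAATG and the dioxin response core GCGTG.
Ugt1a1: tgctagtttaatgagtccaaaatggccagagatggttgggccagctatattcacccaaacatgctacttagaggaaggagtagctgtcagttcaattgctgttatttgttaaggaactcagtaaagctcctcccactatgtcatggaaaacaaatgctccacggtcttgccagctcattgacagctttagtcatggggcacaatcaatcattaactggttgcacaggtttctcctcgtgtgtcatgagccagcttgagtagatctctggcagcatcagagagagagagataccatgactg
Ugt1a5: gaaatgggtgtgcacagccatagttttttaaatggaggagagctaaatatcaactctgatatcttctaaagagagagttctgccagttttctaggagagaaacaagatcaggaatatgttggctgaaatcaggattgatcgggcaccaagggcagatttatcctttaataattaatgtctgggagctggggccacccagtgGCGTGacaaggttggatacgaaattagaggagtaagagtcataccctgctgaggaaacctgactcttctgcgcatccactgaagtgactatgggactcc
Ugt1a6a: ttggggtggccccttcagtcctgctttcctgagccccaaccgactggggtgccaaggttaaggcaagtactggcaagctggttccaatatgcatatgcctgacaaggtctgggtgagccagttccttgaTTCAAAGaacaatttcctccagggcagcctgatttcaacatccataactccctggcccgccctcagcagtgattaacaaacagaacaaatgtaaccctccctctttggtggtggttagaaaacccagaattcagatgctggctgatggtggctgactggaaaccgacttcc

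None of the 5 motifs was found in the Ugt1a1 window. The Ugt1a5 window holds GCGTG at position -49 from the start, and the Ugt1a6a window holds CTTTGAA on the reverse strand at -121. Of 32851 RefSeq windows of this length, 32.4% hold GCGTG, and CTTTGAA is present in 5.14%.

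Ugt1a1, the enzyme that conjugates bilirubin, was read at 115, 236, 122, 219 and 151 FPKM in siYap replicates 1 to 5, against 16.6, 25.5 and 169 FPKM as the lowest, median and highest siLuc library. Only siLuc replicate 1 reached into the siYap range, and the other siLuc libraries lay at or below 68.9 FPKM. The rise passed the test (log2 fold change 1.90 ± 0.51 SE, edgeR adjusted p = 0.0134), and the log2 fold change was 2.51 without siLuc replicate 1. Ugt1a5 was far less abundant, at 6.52, 11.2, 10.7, 12.1 and 4.70 FPKM in siYap and 2.51, 2.77 and 4.58 FPKM (lowest, median, highest) in siLuc libraries, yet the groups did not overlap (log2 fold change 1.54 ± 0.22 SE, adjusted p = 0.000156, edgeR). Ugt1a6b, one of a pair of phenol-conjugating forms, averaged 56.5 ± 19.6 FPKM in siYap and 75.4 ± 17.7 FPKM in siLuc and did not pass (log2 fold change -0.41, edgeR adjusted p = 0.162).

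The make-up of the locus differed between the groups, as shares that were not tested. Ugt1a1 took a median of 61.4% of the summed FPKM of the locus in siYap libraries (38.3% to 68.2%), against 18.2% in siLuc libraries (13.6% to 52.3%). Ugt1a6b took a median of 17.3% in siYap (15.1% to 20.6%), against 52.5% in siLuc (32.6% to 59.8%), with no overlap between the groups. Ugt1a9 varied widely within both groups: it stood at 98.04 and 113 FPKM in siYap replicates 3 and 4, which share a file-name number, and between 3.81 and 16.6 FPKM in the other siYap libraries. In siLuc libraries Ugt1a9 ran between 0.552 and 56.4 FPKM, and it did not pass (edgeR adjusted p = 0.208). Since the shared exons make up much of each transcript, 52% to 80% of the 50-base stretches of a Ugt1a member also occur in another member, and the split between forms is uncertain. With the whole locus counted as 1 feature, added after the data were seen, the log2 fold change was 1.06 ± 0.31 (SE, edgeR adjusted p = 0.0172).

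**Figure D3:**
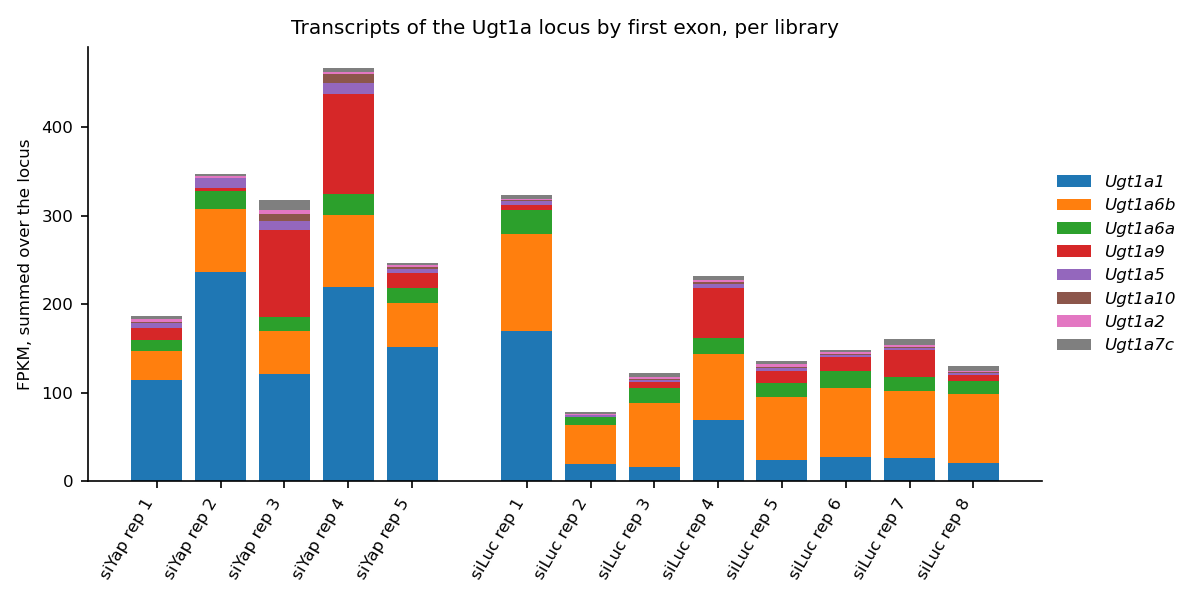
Stacked bars give the FPKM of the 8 Ugt1a transcripts in each library, siYap replicates on the left and siLuc replicates on the right. The Ugt1a1 segment is the largest in all 5 siYap libraries (115 to 236 FPKM), the Ugt1a6b segment in the siLuc libraries other than replicate 1, where Ugt1a1 stood at 169 FPKM.

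Ugt2 enzymes conjugate steroids, bile acids and fatty acids. Their 10 symbols lie on chromosome 5, and edgeR called none of the 9 it tested. Ugt2b34 was the most abundant, at 230.2, 575, 310.3, 699 and 466 FPKM in siYap and 312, 507 and 687 FPKM (lowest, median, highest) in siLuc libraries, and the siYap libraries spread over the siLuc range and to both sides of it (log2 fold change -0.14 ± 0.25 (SE), edgeR adjusted p = 0.710). Ugt2b36 averaged 284 ± 86.9 FPKM in siYap and 229.9 ± 153 FPKM in siLuc, and Ugt2b5 averaged 194 ± 46.7 FPKM in siYap and 267 ± 196 FPKM in siLuc. The siLuc libraries spread widely for this family: its summed FPKM ran between 822 and 1752 in siYap and between 465 and 2277 in siLuc, and the siLuc extremes were replicates 2 and 1, which share a file-name number. Nearest to the threshold were Ugt2a3 (log2 fold change 1.08, edgeR adjusted p = 0.0911) and Ugt2b1 (log2 fold change 1.20, edgeR adjusted p = 0.0923).

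Ugt3 enzymes in humans use sugars other than glucuronic acid. Ugt3a2 stood at 75.2, 182, 135, 427 and 229 FPKM in siYap replicates 1 to 5, against 39.6, 69.3 and 96.5 FPKM (lowest, median, highest) in siLuc libraries. Replicate 1 of siYap lay within the siLuc range and the other siYap libraries lay above it. The rise passed the test (log2 fold change 1.62 ± 0.33 SE, edgeR adjusted p = 0.00241). Its neighbour Ugt3a1 averaged 12.5 ± 9.23 FPKM in siYap and 6.93 ± 3.06 FPKM in siLuc and did not pass (edgeR adjusted p = 0.140).

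The alpha class glutathione transferases reduce lipid peroxides and conjugate their products. Gsta1, Gsta2 and Gsta4 lie within chromosome 9, 78191966 to 78347192, and all 3 fell, while Gsta3, on chromosome 1 (21240565 to 21265575), did not pass. Gsta1 was read at 2.82, 8.18, 0.798, 1.28 and 0.868 FPKM in siYap replicates 1 to 5, against 2.32, 26.6 and 62.9 FPKM (lowest, median, highest) in siLuc libraries. The lowest siLuc library, replicate 2, lay inside the siYap range, and siYap replicate 2 was the highest of its group. Gsta1 fell by 3.36 on the log2 scale (SE 0.77, edgeR adjusted p = 0.00548), and the log2 fold change was -4.16 without siYap replicate 2. Without siYap replicates 1 and 3 together, Gsta1 was the alpha member still called lower and Gsta3 was called higher. Gsta1 shares 46.6% of its 50-base stretches with other members, most closely Gsta2. The 2 genes counted together, an alternative added after the data were seen, fell as well (log2 fold change -1.48, edgeR adjusted p = 0.0104). Gsta2, itself called lower, held most of these fragments in every library, so the sum does not check Gsta1 alone.

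Gsta4, which conjugates the lipid peroxidation product 4-hydroxynonenal, stood at 59.8, 158, 74.1, 153 and 53.6 FPKM in siYap and 94.3, 208 and 295 FPKM (lowest, median, highest) in siLuc libraries. Replicates 2 and 4 of siYap reached into the siLuc range. It fell by 1.08 on the log2 scale (SE 0.30, edgeR adjusted p = 0.0156), and the call was lost without siYap replicate 3 (adjusted p = 0.0507, edgeR, in a range over alternatives of 0.00214 to 0.132). Gsta2 behaved alike in size, with 16.2, 43.4, 34.999, 51.5 and 12.6 FPKM in siYap and 27.05, 68.3 and 89.4 FPKM in siLuc libraries, overlapping in part (log2 fold change -1.07 ± 0.34 SE, adjusted p = 0.0273, edgeR). Its call was lost without siYap replicate 1 or 3 (edgeR adjusted p = 0.0682 and 0.0608, in a range of 0.00609 to 0.147). Gsta3, the major constitutive alpha form of mouse liver, held most of the family's RNA, at 425, 1725, 1291, 2056 and 941 FPKM in siYap and 733, 916 and 1195 FPKM in siLuc libraries. The siYap libraries spread on both sides of the siLuc range (log2 fold change 0.47 ± 0.25 (SE), edgeR adjusted p = 0.162), and Gsta3 passed as higher without siYap replicate 1 (adjusted p = 0.0227, edgeR, in a range of 0.0227 to 0.520).

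The 7 mu class genes lie in 1 cluster on chromosome 3 (107895854 to 108045179), and its members moved in opposite directions. Gstm5, at 1 end of the cluster and on the plus strand, fell. Gstm2 and Gstm6, on the minus strand, rose, and Gstm1, Gstm3, Gstm4 and Gstm7 did not pass. The promoter windows of the rising Gstm2 (minus strand, chr3:107986371-107986670) and the falling Gstm5 (plus strand, chr3:107895604-107895903) are shown because these are the members of the cluster whose groups did not overlap, with capitals for the same motifs as above.
Gstm2: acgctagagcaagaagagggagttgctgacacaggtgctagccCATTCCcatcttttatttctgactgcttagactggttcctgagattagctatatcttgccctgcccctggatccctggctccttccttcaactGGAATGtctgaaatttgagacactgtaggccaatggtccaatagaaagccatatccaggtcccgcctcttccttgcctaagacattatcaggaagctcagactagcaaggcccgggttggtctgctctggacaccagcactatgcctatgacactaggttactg
Gstm5: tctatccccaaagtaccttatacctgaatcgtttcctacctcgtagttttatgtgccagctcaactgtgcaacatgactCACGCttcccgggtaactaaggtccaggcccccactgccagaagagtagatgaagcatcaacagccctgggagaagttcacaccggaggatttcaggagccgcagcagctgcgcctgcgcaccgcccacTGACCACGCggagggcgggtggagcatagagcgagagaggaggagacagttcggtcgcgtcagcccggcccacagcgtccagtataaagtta

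The Gstm2 window holds the TEAD letters GGAATG, at -207 on the reverse strand and at -114. The Gstm5 window holds TGACNNNGC at -42 and GCGTG at -171 and -38 on the reverse strand, the last of these inside the TGACNNNGC match. GGAATG was present in 14.7% and TGACNNNGC in 12.4% of all windows of this length.

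Gstm2 stood at 124, 389, 354, 474 and 290.1 FPKM in siYap replicates 1 to 5, against 10.97, 85.6 and 110.4 FPKM (lowest, median, highest) in siLuc libraries. The lowest siYap library lay above the highest siLuc library. The mean was 4.52-fold higher in siYap (log2 fold change 2.16 ± 0.45 SE, edgeR adjusted p = 0.00289). Gstm6 followed with 66.9, 159, 94.8, 284 and 146 FPKM in siYap and 38.1, 58.8 and 75.8 FPKM in siLuc libraries, where siYap replicate 1 alone lay within the siLuc range (log2 fold change 1.38 ± 0.27 SE, adjusted p = 0.00161, edgeR).

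Gstm5 stood at 14.7, 14.1, 14.8, 27.3 and 27.4 FPKM in siYap libraries, against 36.9, 75.2 and 241 FPKM (lowest, median, highest) in siLuc libraries. Every siYap library lay below every siLuc library, and siLuc replicate 8, the male library, was far above the rest. The mean was 4.83-fold higher in siLuc than in siYap (log2 fold change -2.26 ± 0.40 (SE), edgeR adjusted p = 0.000946), and the log2 fold change was -1.91 without siLuc replicate 8. Gstm1, the most abundant mu form, stood at 431, 602, 953, 582 and 348 FPKM in siYap and 331, 533 and 939 FPKM in siLuc libraries. These ranges coincided almost entirely (log2 fold change 0.08 ± 0.28 (SE), edgeR adjusted p = 0.842).

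Mice have a pair of expressed pi class genes, side by side on chromosome 19. Gstp1 stood at 85.6, 184, 173, 223 and 132 FPKM in siYap and 75.6, 155 and 207 FPKM (lowest, median, highest) in siLuc libraries, and the ranges overlapped for most libraries (log2 fold change 0.08 ± 0.21 (SE), edgeR adjusted p = 0.804). Gstp2 stood at 0.755, 7.58, 2.81, 0.984 and 1.09 FPKM in siYap and 0.299, 21.8 and 111 FPKM in siLuc libraries. It was called lower (log2 fold change -3.40 ± 1.20 SE, adjusted p = 0.0443, edgeR), although 3 siLuc libraries (replicates 2, 7 and 8) lay within or below the siYap range and siLuc replicate 1 was far above the rest. The call was lost without siLuc replicate 1 (log2 fold change -2.37, edgeR adjusted p = 0.0836), without siYap replicate 2 the log2 fold change was -4.30, and 17 of 27 alternatives ended the call (adjusted p 0.00578 to 0.336 over alternatives). Gstp2 shares 49.1% of its 50-base stretches with other members, and the pair counted together, added after the data were seen, did not pass (log2 fold change -0.14, edgeR adjusted p = 0.694).

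Theta class transferases act on small halogenated compounds and lie in 1 cluster on chromosome 10. Gstt1 stood at 36.6, 109, 91.6, 124 and 73.2 FPKM in siYap and 24.1, 37.6 and 60.3 FPKM (lowest, median, highest) in siLuc libraries. Only siYap replicate 1 lay within the siLuc range (log2 fold change 1.15 ± 0.22 SE, edgeR adjusted p = 0.00158). The neighbouring Gstt3 stood at 9.21, 9.96, 6.01, 5.58 and 6.76 FPKM in siYap and 0.885, 2.20 and 3.37 FPKM in siLuc libraries. Here no libraries of the groups overlapped, and the mean was 3.60-fold higher in siYap (log2 fold change 1.87 ± 0.29 SE, edgeR adjusted p = 0.000337). Gstt2 averaged 27.1 ± 10.5 FPKM in siYap and 20.6 ± 6.34 FPKM in siLuc and did not pass (edgeR adjusted p = 0.267), and Gstt4 reached at most 5 fragments in any library and was not tested.

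Of the other soluble classes, Gsto1, an omega form that reduces dehydroascorbate and mixed disulfides, stood at 22.5, 17.4, 15.6, 20.2 and 15.5 FPKM in siYap and 17.8, 29.3 and 38.9 FPKM (lowest, median, highest) in siLuc libraries. The groups overlapped only at the low end of siLuc (log2 fold change -0.65 ± 0.17 SE, edgeR adjusted p = 0.0118). Gstz1, the maleylacetoacetate isomerase of tyrosine breakdown, stood at 158, 322, 267, 411 and 297 FPKM in siYap and 152, 207 and 277 FPKM in siLuc libraries. Its small rise (log2 fold change 0.47 ± 0.17 SE, edgeR adjusted p = 0.0462) was lost in 17 of 28 alternatives, among them leaving out siYap replicate 2, 3, 4 or 5 (adjusted p 0.0121 to 0.160 over alternatives). Gstk1, the kappa form of mitochondria and peroxisomes, averaged 91.5 ± 31.9 FPKM in siYap and 75.8 ± 8.54 FPKM in siLuc and did not pass (edgeR adjusted p = 0.188).

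Mgst1, a glutathione transferase and peroxidase of the endoplasmic reticulum and outer mitochondrial membrane, had the highest mean FPKM of all members. It stood at 2101, 3519, 2353, 4798 and 3737 FPKM in siYap and 1302, 2169 and 3502 FPKM (lowest, median, highest) in siLuc libraries. The siYap libraries lay inside the siLuc range or above it, and the difference missed the threshold (log2 fold change 0.57 ± 0.24 (SE), edgeR adjusted p = 0.0823). Without siYap replicate 1 it passed as higher (adjusted p = 0.0253, edgeR, in a range over alternatives of 0.0121 to 0.270). Mgst3 averaged 56.8 ± 29.1 FPKM in siYap and 75.2 ± 31.5 FPKM in siLuc and did not pass (edgeR adjusted p = 0.340).

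Sult1 enzymes sulfate phenols, catecholamines, oestrogens and thyroid hormones. Sult1a1, the general phenol sulfotransferase, held most of the sulfotransferase RNA and fell. It stood at 322, 754, 464, 965 and 608 FPKM in siYap replicates 1 to 5, against 1226, 1380.2 and 2336 FPKM (lowest, median, highest) in siLuc libraries. No siYap library reached the lowest siLuc library, and siLuc replicate 8 was the highest. Sult1a1 fell by 1.26 on the log2 scale (SE 0.23, edgeR adjusted p = 0.00114).

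Sult1d1, Sult1e1 and Sult1b1 lie together on chromosome 5 (87513327 to 87591611), next to the Ugt2 cluster. Sult1d1, which sulfates catecholamines, stood at 188, 181, 126, 169 and 131 FPKM in siYap and 14.1, 50.7 and 125 FPKM (lowest, median, highest) in siLuc libraries. The lowest siYap library lay just above the highest siLuc library (log2 fold change 1.40 ± 0.43 SE, edgeR adjusted p = 0.0249), and the call was lost without siYap replicate 2 (adjusted p = 0.0524, edgeR) and with libraries of 1 file-name number added together (edgeR adjusted p = 0.122, the highest of a range from 0.00377). Sult1e1, the oestrogen sulfotransferase, stood at 19.96, 0.870, 0.731, 1.59 and 6.27 FPKM in siYap and 0, 0.424 and 1.26 FPKM in siLuc libraries. It was high in siYap replicate 1 and to a lesser degree in replicate 5, and the other siYap libraries lay within or just above the siLuc range. It was called higher (log2 fold change 3.18 ± 0.95 SE, edgeR adjusted p = 0.0217), but without siYap replicate 1 the log2 fold change was 2.07 and the call was lost (adjusted p = 0.116, edgeR, in a range of 0.0133 to 0.123). Sult1b1, a thyroid hormone sulfotransferase, averaged 7.07 ± 3.98 FPKM in siYap and 3.33 ± 1.77 FPKM in siLuc. It lay just outside edgeR's threshold (log2 fold change 1.10, edgeR adjusted p = 0.0611), while DESeq2's test called it higher.

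Sult2 enzymes sulfate hydroxysteroids and bile acids, and Sult2b1 sulfates cholesterol. Of 8 members, 4 were tested, and Sult2b1 alone was called. Sult2b1 stood at 0.0346, 0.174, 0.166, 0.0644 and 0.429 FPKM in siYap and 0.362, 1.22 and 2.41 FPKM (lowest, median, highest) in siLuc libraries. It was low in every siYap library, overlapping siLuc only at siLuc replicate 4 (log2 fold change -2.91 ± 0.56 SE, edgeR adjusted p = 0.00147), on at most 14 fragments in a siYap and 96 in a siLuc library, and the log2 fold change was -3.56 without siYap replicate 5. Sult2a2, the most abundant of the family, stood at 8.29, 0.653, 1.49, 4.74 and 3.34 FPKM in siYap and 0, 3.20 and 14.7 FPKM in siLuc libraries. Its values scattered over the same range in both groups (log2 fold change -0.25 ± 1.02 (SE), edgeR adjusted p = 0.872), and 62.1% of its 50-base stretches also occur in other members.

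Sult3a1, known in mouse liver for sulfating amines, stood at 1.32, 0.333, 2.63, 2.82 and 1.06 FPKM in siYap and 0, 0.0740 and 0.509 FPKM (lowest, median, highest) in siLuc libraries. Only siYap replicate 2 lay within the siLuc range (log2 fold change 3.10 ± 0.75 SE, edgeR adjusted p = 0.00665), on at most 84 fragments in a siYap and 16 in a siLuc library. Sult6b1 averaged 0.548 ± 0.391 FPKM in siYap and 0.554 ± 0.137 FPKM in siLuc and did not pass (edgeR adjusted p = 0.929). The untested members (Ugt2a2, Gstt4, Gsto2, Mgst2, Sult1c1, Sult2a3, Sult2a4, Sult2a6, Sult2a7, Sult4a1 and Sult5a1) failed edgeR's filter on low counts. DESeq2, which kept them, called none (3 had no adjusted p, and 1, Sult4a1, had an unadjusted p under 0.05). Without the filter edgeR called 1, Sult2a3 (adjusted p = 0.0312), on 2, 5, 4, 0 and 0 fragments in siYap replicates 1 to 5 and 0 in every siLuc library.

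Family sums were dominated by an abundant member in several families, Sult1 and Gsta among them. The summed Sult1 FPKM ran between 541 and 1160 in siYap and between 1342 and 2358 in siLuc, without overlap, and followed Sult1a1. The Gsta sum ran between 503 and 2262 FPKM in siYap and between 1059 and 1392 FPKM in siLuc, and followed Gsta3, so that the fall of the 3 less abundant members did not show in it. The Gstt sum ran between 59.4 and 172 FPKM in siYap and between 42.1 and 87.8 FPKM in siLuc, and the Ugt1 sum between 187 and 467 FPKM in siYap and between 78.4 and 324 FPKM in siLuc. These sums are descriptions and were not tested.

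**Figure D4:**
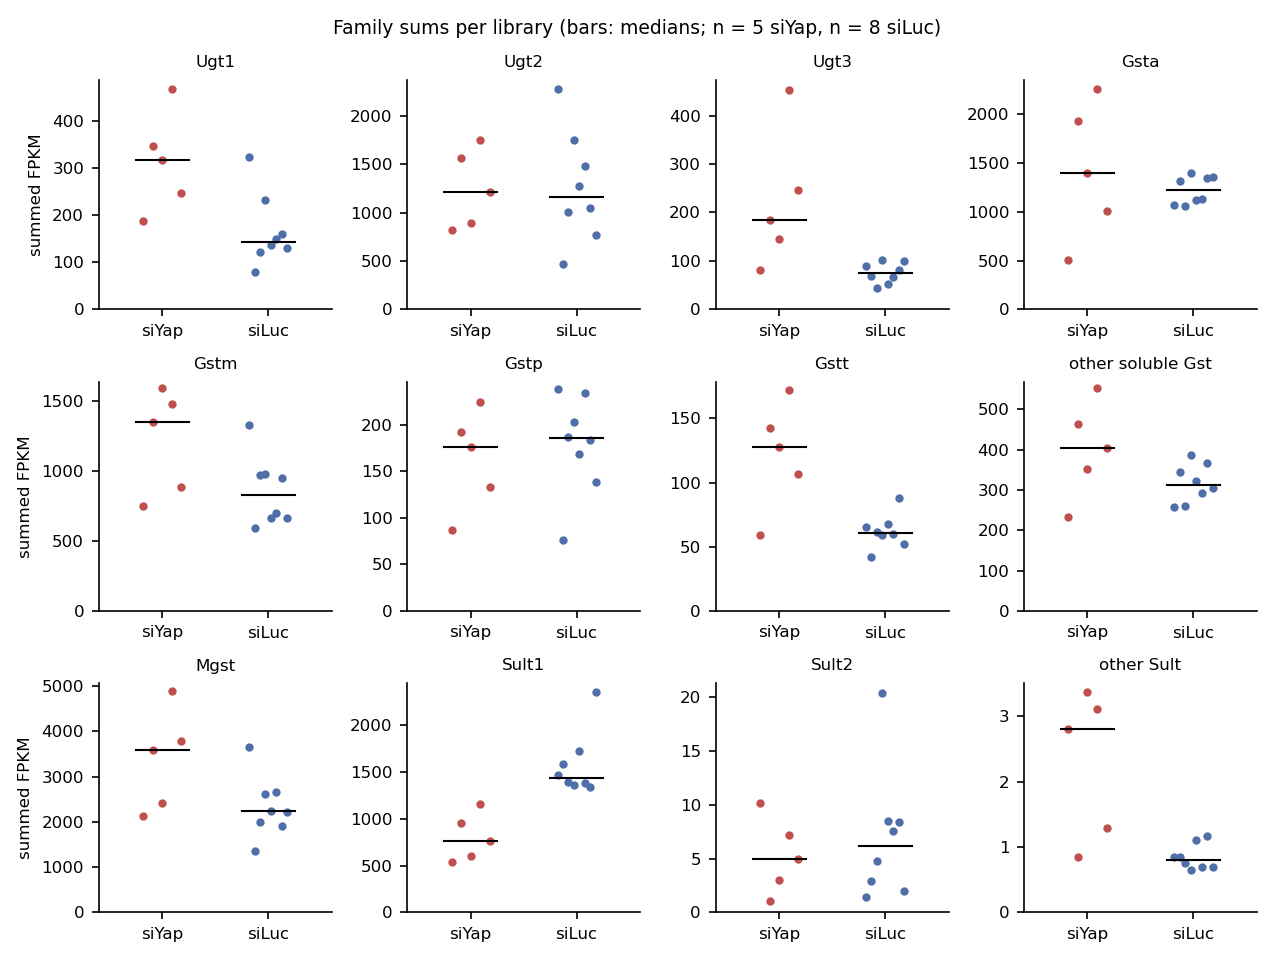
Each panel gives the summed FPKM of 1 of the 12 families, 1 point per library, siYap left of siLuc, with a bar at the median and a linear axis from 0. The Sult1 panel is the one without overlap between the groups (541 to 1160 FPKM in siYap, 1342 to 2358 FPKM in siLuc); the other panels overlap.

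Some libraries stood apart for many members at once. Over the 43 tested members with a mean of at least 1 FPKM, siYap replicate 1 was the lowest siYap library for 21, where it was the lowest for 32.8% of all genes, and siYap replicate 4 was the highest for 22, against 21.1% of all genes. Among siLuc libraries, replicate 2 was the lowest for 26 of the 43 members, against 16.3% of all genes, and replicate 1 was the highest for 19, against 24.1%. Replicates 1 and 2 of siLuc share a file-name number, and the other siLuc libraries held the highest value for 22 members and the lowest for 13. The part of the low total and high Rn45s of siYap replicate 1 in its low values was not tested.

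Genes that supply the cofactors were read beside the enzymes. Of 13 sulfate supply genes tested, 4 were higher and 2 lower (median log2 fold change -0.06). The called share was 46.2%, against 30.8% of all tested genes. Papss2, which makes the activated sulfate that every Sult uses, averaged 71.3 ± 26.9 FPKM in siYap and 14.9 ± 8.13 FPKM in siLuc, with no overlap (log2 fold change 2.27 ± 0.37 SE, adjusted p = 0.000553, edgeR). Its paralog Papss1 averaged 8.07 ± 1.20 FPKM in siYap and 13.7 ± 3.03 FPKM in siLuc, also with no overlap and in the opposite direction (log2 fold change -0.78 ± 0.18 SE, adjusted p = 0.00426, edgeR). Cdo1, which starts the oxidation of cysteine that yields sulfate and taurine, averaged 1526 ± 711 FPKM in siYap and 509 ± 139 FPKM in siLuc (log2 fold change 1.59 ± 0.27 SE, adjusted p = 0.000718, edgeR), and Tst, a thiosulfate sulfurtransferase, rose as well (log2 fold change 0.97, edgeR adjusted p = 0.000718). Suox, which oxidises sulfite to sulfate, had a log2 fold change of 1.31 (edgeR adjusted p = 0.000881).

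Of 11 glucuronide supply genes, 1 was higher and 2 were lower (median log2 fold change -0.07). The called share of 27.3% was close to the 30.8% of all tested genes. The higher one was Slc35d1, which carries UDP-glucuronic acid into the endoplasmic reticulum, with 34.8 ± 23.6 FPKM in siYap and 13.9 ± 5.75 FPKM in siLuc (log2 fold change 1.34 ± 0.32 SE, adjusted p = 0.00705, edgeR). The lower ones included Pgm1, a phosphoglucomutase (log2 fold change -0.83, edgeR adjusted p = 0.0303). Ugdh, which makes UDP-glucuronic acid, averaged 65.9 ± 26.4 FPKM in siYap and 70.98 ± 45.8 FPKM in siLuc and did not pass (edgeR adjusted p = 0.900).

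Of 21 genes of glutathione supply and turnover, 5 were higher and 3 lower (median log2 fold change 0.25). The called share was 38.1%, against 30.8% of all tested genes. Gss, the second enzyme of glutathione synthesis, averaged 52.4 ± 13.3 FPKM in siYap and 93.5 ± 15.3 FPKM in siLuc with no overlap (log2 fold change -0.82 ± 0.14 SE, adjusted p = 0.000755, edgeR). The subunits of the first enzyme, Gclc and Gclm, did not pass (edgeR adjusted p = 0.192 and 0.700). Anpep, a peptidase that can split cysteinylglycine, and Ahcy, which yields homocysteine, rose (log2 fold change 1.88 and 1.40, edgeR adjusted p = 0.000250 and 0.000873).

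Of 10 genes of conjugate export, 2 were higher and 2 lower (40.0% called, against 30.8% of all tested genes). Abcc2, the canalicular pump for glucuronides and glutathione conjugates, averaged 182 ± 40.4 FPKM in siYap and 90.1 ± 16.7 FPKM in siLuc with no overlap (log2 fold change 1.02 ± 0.18 SE, adjusted p = 0.000741, edgeR), and Abcc6 rose by 0.95 on the log2 scale (edgeR adjusted p = 0.00182). Abcc5 averaged 4.46 ± 1.08 FPKM in siYap and 14.7 ± 4.34 FPKM in siLuc, again with no overlap (log2 fold change -1.69 ± 0.22 SE, adjusted p = 8.41e-05, edgeR), and Abcg2, which also exports sulfate conjugates, had a log2 fold change of -1.15 (edgeR adjusted p = 0.0102). Of 10 hydrolase genes tested, listed as deconjugation but including carboxylesterases, which split esters, 3 were higher and 1 lower (40.0% called). Removal of glucuronides or sulfates was not measured. Ces1d and Ces3a, carboxylesterases, rose (log2 fold change 1.69 and 2.56, edgeR adjusted p = 0.00385 and 0.00665). Arsg, a lysosomal sulfatase, fell by 2.48 on the log2 scale (edgeR adjusted p = 0.000383). Of 19 genes of acetyl, methyl and glycine conjugation, 4 were higher and 5 lower (47.4% called). The lower ones included Tpmt, a thiopurine methyltransferase (log2 fold change -1.23, edgeR adjusted p = 5.97e-05). Acsm2 and Keg1 were also lower (log2 fold change -1.79 and -1.26, edgeR adjusted p = 0.00178 and 0.00585).

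Of 24 tested regulators of these enzymes, 12 were higher by edgeR (50.0%, against 16.0% of all tested genes). The median log2 fold change was 0.29, and limma on log2(FPKM + 1) called 11 regulators higher. None was lower by edgeR, DESeq2 or limma, with 1 lower at an unadjusted p under 0.05 in edgeR; without siYap replicates 1 and 3, 8 were higher. Ahr, the dioxin receptor, averaged 67.1 ± 23.1 FPKM in siYap and 13.4 ± 3.80 FPKM in siLuc with no overlap (log2 fold change 2.32 ± 0.28 SE, adjusted p = 5.34e-05, edgeR). Rxra, the shared partner of several nuclear receptors, averaged 56.6 ± 12.6 FPKM in siYap and 29.1 ± 3.39 FPKM in siLuc (log2 fold change 0.99, edgeR adjusted p = 9.2e-05). Nr1i3, the constitutive androstane receptor, averaged 55.3 ± 29.1 FPKM in siYap and 8.21 ± 6.25 FPKM in siLuc with no overlap (log2 fold change 2.77 ± 0.51 (SE), edgeR adjusted p = 0.00136). Nfe2l2 (Nrf2), the factor of the antioxidant response, averaged 39.99 ± 5.92 FPKM in siYap and 38.3 ± 5.41 FPKM in siLuc and did not pass (edgeR adjusted p = 0.760). Papss1, Suox, Ugdh, Gclc, Gclm, Abcg2, Nr1i3 and Nfe2l2 were singled out after their values were seen.

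**Figure D5:**
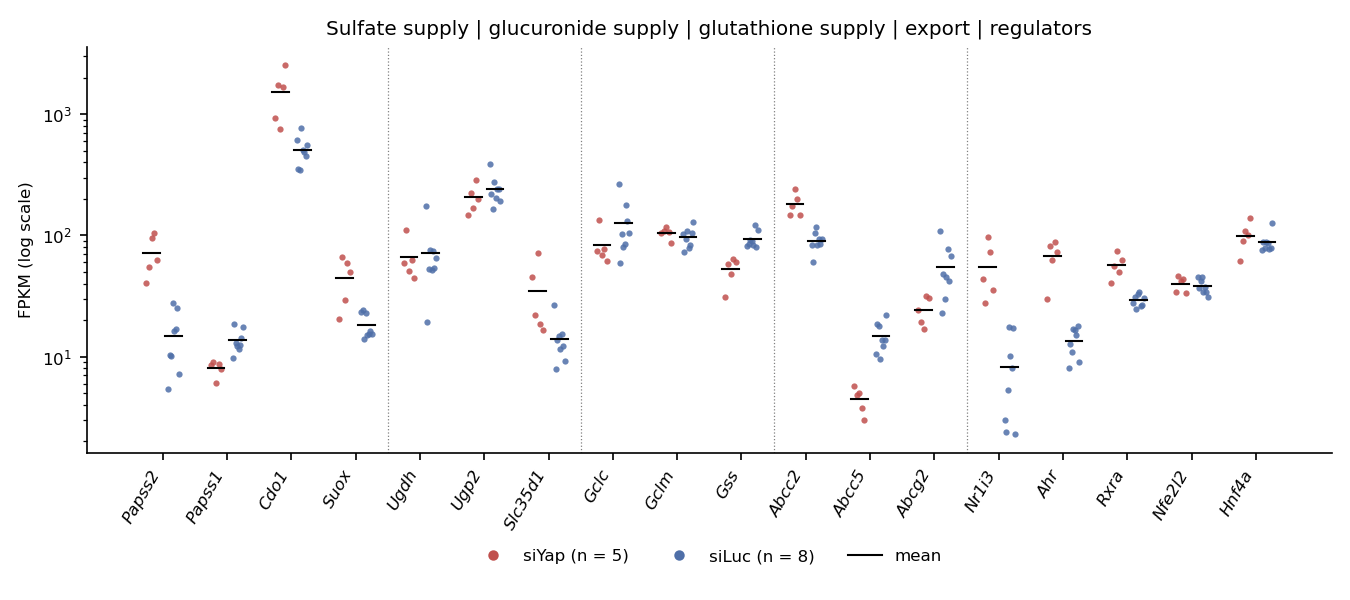
FPKM on a log axis for genes of cofactor supply, export and regulation, 1 point per library, siYap left of siLuc, with a line at the mean. Papss2, Abcc2, Nr1i3, Ahr and Rxra sit higher in every siYap than in every siLuc library, and Papss1, Gss and Abcc5 lower; Ugp2 and Hnf4a, shown for scale, overlap.

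Phase I cytochromes of families Cyp1 to Cyp3 gave a different count: 20 of 48 tested were higher and 5 lower, with a median log2 fold change of 1.57, against 11 higher and 8 lower of 51 conjugation enzymes with a median of 0.28. The called share was 52.1% of the cytochromes and 37.3% of the conjugation enzymes, against 30.8% of all tested genes. The difference between these 2 sets of genes was not tested. RefSeq windows were found for 54 of the 62 members (65 windows), and 28 of those 54 held the letters of at least 1 of the 5 motifs. The share of all genes with at least 1 of them was not counted, so no excess is claimed. GGAATG was in 16.9% of the members' windows and 14.7% of all windows, GCGTG in 18.5% of the members' and 32.4% of all, CTTTGAA in 10.8% of the members' and 5.14% of all, and TGACNNNGC in 6.15% of the members' and 12.4% of all. No member window held CTTTGAT, which 3.73% of all windows hold. These shares were not tested.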

How the data were processed

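RNA-seq of mouse liver tumours was analysed, 5 siYap and 8 siLuc libraries. Per the labels' protocols, the kit was ScriptSeq Complete Gold and the sequencer a HiSeq2500. Trimmomatic 0.30, TopHat2 2.0.8, Cufflinks and Cuffdiff 2.1.1 and the build mm10 are named, per the submitters' processing notes. The annotation used and the treatment of reads matching several genes were not stated. Each library has its own Cuffdiff table, deposited by the authors, that lists fragments and FPKM per gene. The deposited fragments are estimated counts: 97.6% to 98.0% of them per library were whole to within 1e-06, and totals differed. The deposited FPKM values were scaled by the authors per transcript length and depth. Cuffdiff numbered the siYap libraries 0, 1, 5, 6 and 7, so its scaling may have included libraries not analysed here. Alb, Apob and Trf were left out because Cuffdiff gave them the status HIDATA, too many fragments to quantify. Their deposited value of 0 in all libraries is therefore not a measure of expression.

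Estimated counts were rounded and tested in edgeR 4.0.16 (R 4.3.3) by the quasi-likelihood F test (TMM, robust, default low-count filter by group, 15132 genes), two-sided, with Benjamini-Hochberg adjustment over all genes and a threshold of 0.05. Levels are FPKM, and errors of fold changes are standard errors. Values in every library are given for the most abundant member of each family and for the 3 called members of each family with the largest change, provided that 1 group averaged 1 FPKM or more. Up to 3 called genes of each companion list with the smallest p were named, and some genes that this rule chose are not reported here. The members and the lists were chosen with earlier results of these data known. The numbers that titles share did not pair the libraries (correlations of deviations -0.12, 0.13, 0.07, 0.12 and -0.09). Within a group, every pair of libraries differed beyond sampling noise (chi-square per degree of freedom at least 34.8). Alternatives were DESeq2 1.42.0 (size factors and Wald test), upper-quartile scaling, limma 3.58.1 on log2(FPKM + 1) or log2(FPKM + 0.1) where 5 libraries reached 1 FPKM, low counts unfiltered or a minimum mean count of 50, counts summed per file-name number (3 in siYap, 5 in siLuc), a random effect of that number, a block on the titles' replicate number, code digit or sex as a term, each library left out, and an adjusted p under 0.01. The block on the replicate number used only replicates 1 to 5 of each group. Shared 50-base stretches were counted in GENCODE M21 transcripts, and gene coordinates and promoter windows are from RefSeq (GRCm38.p6, the same primary sequence as mm10). The edgeR step was tested on simulated data.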

Additional observations from a re-analysis of the deposited data

Results flagged for a closer look

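Over 74 sets of values (the named members and the family sums, each in siYap and in siLuc), 9 held a library that lay far from the others of its group by Dixon's criterion. The criterion flags about 1 in 20 of independent, normally distributed sets. The family sums here contain the named members and FPKM values need not be normal, so no excess over chance is claimed. In siYap, Gsta1 reached 8.178 FPKM in replicate 2, where the next value was 2.82 FPKM, and Sult1e1 reached 19.96 FPKM in replicate 1, where the next was 6.27 FPKM. In siLuc, Gstp2 reached 111.2 FPKM and Ugt1a1 169.4 FPKM, both in replicate 1. Replicate 8, the male library, held the highest siLuc values of Gstm5 (241.4 FPKM) and Sult1a1 (2336 FPKM), and the Sult1 family sum there was 2358 FPKM. With sex as a term the log2 fold changes were -1.91 for Gstm5 (edgeR adjusted p = 0.000155, in a range over alternatives of 5.34e-09 to 0.0154) and -1.15 for Sult1a1 (edgeR adjusted p = 0.00167, in a range of 8.07e-07 to 0.0158). Replicate 4 of siLuc held the highest values of Sult2a2 (14.66 FPKM) and of the Sult2 family sum (20.35 FPKM).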

How the results depend on the processing

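Over 689 alternative values of the 25 members given in full, 612 kept direction and side of the threshold, 57 lost the call, 5 gained it and 15 changed sign; 10 of 19 called members never lost it. Leaving out 1 library gave 10 to 13 higher and 5 to 8 lower members, 15 to 20 in all. The replicate block, fitted only on replicates 1 to 5 of each group, left 3 lower (10 higher). It ended the calls of Gsta1, Gsta2, Gsta4, Gsto1, Gstp2, Gstz1 and Sult1e1 and added Ugt1a10 as higher. The part of the smaller number of siLuc libraries in these changes was not tested. Lower members were 5 without siYap replicates 1 and 3. At an adjusted p under 0.01 there were 7 higher and 4 lower, 11 in all. Sign changes touched only uncalled members. Log2 fold changes with 1 library left out ran between -0.14 and 0.26 for Gstm1, -0.056 and 0.19 for Gstp1, -0.34 and 0.032 for Ugt2b34 and -0.60 and 0.50 for Sult2a2. Gstm1 was -0.025 summed per number, -0.051 in the block and -0.15 without siYap replicates 1 and 3, where Ugt2b34 was 0.21. Sult2a2 was 0.30 and 0.98 in limma with pseudocounts 1 and 0.1, 1.29 with the random effect, 0.34 in the block and 2.09 with the digit. Family sums without the most abundant member were compared as the difference of mean log2(summed FPKM + 0.01), siYap minus siLuc. This difference was 0.17 for Ugt1, 0.57 for Ugt3, -1.25 for Gsta and 0.99 for Gstm. For Gstp it was -2.30, for Mgst -0.50, for Sult1 1.55 and for other Sult -0.29. The cause was not tested. Members with under 100 fragments, such as Sult2b1 and Sult3a1, are the least precise.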
